A study of Mus musculus with 2 samples.

Results

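Upper layer-gated nuclei are barcodes of a brain single-nucleus ATAC-seq experiment with an excess of transposase fragments over 7 genes that mark excitatory neurons of the upper cortical layers: Cux2, Lhx2, Rasgrf2, Nectin3, Neurod1, Neurod6 and Rorb. For each barcode, the fragments over the bodies and 2 kb upstream of these genes (k) were compared with the number expected from its depth (E), at a rate taken over both libraries together. A barcode was kept where (k − E)/√E was at least 3 and k at least 5, and dropped where the same score over Gad1, Gad2 and Slc32a1, the GABA synthesis and vesicle loading genes, was 1 or more. Of 10329 barcodes that were called as cells, had 1000 to 100000 fragments in peaks and more than 20% of their fragments there, 619 met the rule. Because these nuclei were selected on their accessibility at the 10 genes, their values at the 10 genes are a description of the selection and are given without a test.

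The experiment compared the brain 48 h after middle cerebral artery occlusion and reperfusion (MCAO/R), a filament model of ischemic stroke, with sham surgery. The stroke library held nuclei of the ipsilateral hemispheres of 4 wild-type male C57BL/6J mice aged 8 to 12 weeks, in which the artery was occluded for 1 h, and the sham library held nuclei of 4 brains from mice of the same kind in which the filament was inserted without sustained occlusion. Olfactory bulbs and cerebellum were left out, the tissue was flash-frozen, and the animals of each condition were pooled into 1 library. With 1 library per condition no difference between sham and stroke has a replicate check, all intervals (95%, exact) cover counting error only, and condition, library and the tissue taken (brain against hemisphere) cannot be told apart.

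ATAC-seq reads how open DNA is to a transposase, so it measures accessibility of a gene's locus and not its transcript. Upper layer excitatory neurons send their axons mainly to other cortical areas. Cux2, a homeodomain factor, and Rorb, a nuclear receptor enriched in layer 4, are used as layer markers; Lhx2 is a LIM homeodomain factor, Neurod1 and Neurod6 are neurogenic basic helix-loop-helix factors that bind E-box sequences, Rasgrf2 is a guanine nucleotide exchange factor for Ras, and Nectin3 is an adhesion molecule. The cortex supplied by the middle cerebral artery is among the tissue at risk in this model.

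The regions that separated these nuclei from the rest lay mostly away from promoters, and 7 of them are shown. Each run holds the 200 bases with the most cut sites of upper layer-gated nuclei inside a 500 bp bin, from the + strand of mm10 (GRCm38), and capitals mark a Neurod-type E-box (CAGATG, or CATCTG where it reads on the other strand) or an AP-1 site (TGANTCA), the site bound by Fos and Jun dimers. The first 2 lie in introns of the genes used for selection, and the next 5 are among the 8 highest-ranked bins outside those genes.
Cux2 intron, its most open bin, chr5:121892300-121892499: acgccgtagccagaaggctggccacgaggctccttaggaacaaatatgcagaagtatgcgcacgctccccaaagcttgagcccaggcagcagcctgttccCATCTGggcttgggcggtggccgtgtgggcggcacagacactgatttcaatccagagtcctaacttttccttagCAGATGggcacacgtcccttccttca
Rasgrf2 intron, its most open bin, chr13:91974244-91974443: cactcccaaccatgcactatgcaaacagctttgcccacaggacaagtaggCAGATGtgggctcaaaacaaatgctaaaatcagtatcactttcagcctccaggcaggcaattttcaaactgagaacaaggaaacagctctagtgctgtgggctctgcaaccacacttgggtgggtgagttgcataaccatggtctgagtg
Intergenic bin nearest to Fam84a, rank 2, chr12:13939587-13939786: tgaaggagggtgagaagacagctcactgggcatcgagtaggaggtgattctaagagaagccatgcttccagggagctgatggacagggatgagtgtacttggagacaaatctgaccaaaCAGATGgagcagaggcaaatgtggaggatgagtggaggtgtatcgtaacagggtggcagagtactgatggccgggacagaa
Intergenic bin nearest to Btbd3, rank 3, chr2:138820557-138820756: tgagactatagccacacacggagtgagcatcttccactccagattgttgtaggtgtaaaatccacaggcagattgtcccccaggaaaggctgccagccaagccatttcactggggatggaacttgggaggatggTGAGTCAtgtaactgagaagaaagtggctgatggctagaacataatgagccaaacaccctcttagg
Intergenic bin nearest to Dact2, rank 5, chr17:14175790-14175989: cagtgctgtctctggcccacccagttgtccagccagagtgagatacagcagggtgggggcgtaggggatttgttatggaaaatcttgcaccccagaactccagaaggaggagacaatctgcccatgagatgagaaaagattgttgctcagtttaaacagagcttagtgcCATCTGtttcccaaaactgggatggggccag
Intergenic bin nearest to Prag1, rank 7, chr8:36020023-36020222: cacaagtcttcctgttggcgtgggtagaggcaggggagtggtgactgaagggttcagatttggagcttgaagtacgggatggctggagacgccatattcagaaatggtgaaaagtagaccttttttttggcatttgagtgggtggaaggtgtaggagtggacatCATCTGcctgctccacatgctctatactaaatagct
Intergenic bin upstream of Calb1, rank 8, with no match to any motif searched, chr4:15770001-15770200: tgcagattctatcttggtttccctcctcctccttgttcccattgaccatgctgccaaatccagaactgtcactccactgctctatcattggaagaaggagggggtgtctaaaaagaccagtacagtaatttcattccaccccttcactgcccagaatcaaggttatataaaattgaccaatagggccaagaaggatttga

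The sham library held 76959104 fragments and 5949 filtered barcodes, and the stroke library 96465679 fragments and 4380 filtered barcodes. Median depth was close, at 11532 and 11225 fragments per barcode, while the median percentage of fragments in peaks was 39.3 in sham and 33.7 in stroke. In total, 34 barcode sequences occurred in both libraries, of which 0 were upper layer-gated. Across 18 clusters of the filtered barcodes, 3 consisted almost wholly of the stroke library (747 of 789 nuclei), and they held 17 of the 194 upper layer-gated stroke nuclei and 1 of the 425 sham nuclei.

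Upper layer-gated nuclei made up 425 of 5949 sham barcodes, or 7.14% (6.5 to 7.83), and 194 of 4380 stroke barcodes, or 4.43% (3.84 to 5.08). The share was lower in stroke by a ratio of 0.620 (0.520 to 0.736). The filters kept different parts of the libraries: of 6979 sham and 8740 stroke barcodes called as cells, 6000 and 5584 were in the range of fragments in peaks, and 85.2% and 50.1% passed all filters. Over all called barcodes, the gated nuclei were 6.09% and 2.22%, a ratio of 0.364. The study states fewer sham cells and more stroke cells than the called barcodes used here, and that difference in the denominator was not resolved. Nuclei gated in the same way on deep layer markers (Fezf2, Tle4, Foxp2, Sox5 and Tbr1) made up 5.11% of sham and 5.34% of stroke barcodes, a ratio of 1.05 (0.878 to 1.24); this gate also dropped upper layer-gated nuclei, and without that drop it held 326 and 240 nuclei, a ratio of 1.0 (0.843 to 1.18). Nuclei gated on Gad1, Gad2 and Slc32a1 made up 5.68% and 4.95%, a ratio of 0.872 (0.732 to 1.04). Both of these intervals included 1, whereas that of the upper layer gate did not; the difference between gates was not tested. In the libraries as a whole, fragments over the 7 genes gave 509.9 fragments per 1000000 fragments of the library (CPM) in sham and 459.3 in stroke, those over Cux2 at 193.9 and 155.1, and those over Rorb at 64.2 in sham and 71.8 in stroke.

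The size of this difference depended on the gate. With the expected rate taken within each library the ratio was 0.807 (0.683 to 0.951), and with a score of at least 5 it was 0.429 (0.314 to 0.577). Leaving out each of the 7 genes in turn gave ratios from 0.594 without Rasgrf2 to 0.709 without Cux2. Fewer such cells, less open marker loci and a different mix of regions in the tissue taken cannot be told apart in these counts.

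Scores of upper layer-gated nuclei ran from the threshold to 22.5 in sham, with a median of 4.6, and to 17.1 in stroke, with a median of 4.14. The median nucleus had 19 marker fragments against 6.53 expected in sham and 17 against 6.25 in stroke. At the threshold, the last sham nucleus inside had 7 fragments against 2.37 expected and the first outside 13 against 5.79; in stroke these were 18 against 9.0 and 14 against 6.41. Scores from 3 to 3.5 accounted for 86 sham (20.2%) and 45 stroke nuclei (23.2%), and no gap separated them from the 115 sham and 70 stroke barcodes between 2.5 and 3 that met the other criteria, or 126 and 81 without the limits on the GABAergic score and on k. The exclusion on GABAergic genes removed 71 sham and 42 stroke barcodes. The gated nuclei were deeper than other barcodes, with medians of 13360 against 11398 fragments in sham and 12782 against 11114 in stroke.

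**Figure D1:**
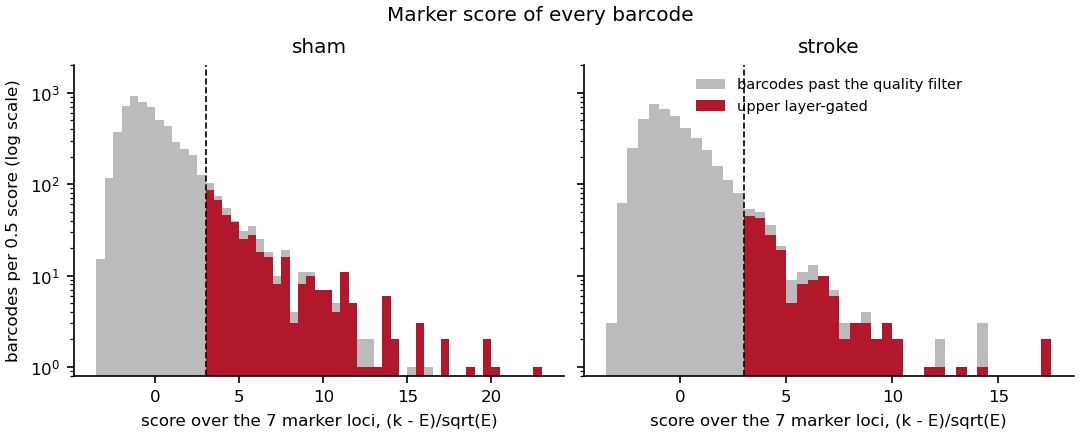
Number of barcodes (log scale) in bins of 0.5 of the score over the 7 marker genes, for the sham (left) and stroke (right) libraries, with all filtered barcodes in grey and upper layer-gated nuclei in red; the dashed line is the threshold of 3. The counts decline without a gap through the threshold, and the red bars reach 22.5 in sham and 17.1 in stroke.

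Cux2 (ENSMUSG00000042589, chr5:121856366-122050102, − strand) was the gene with the largest excess over expectation in more gated nuclei than any other, 46.8% of those in sham and 41.8% in stroke. Scaled to all fragments of the nuclei summed, it was at 766 CPM in gated sham nuclei against 143 in the rest of the library, and 661 against 129 in stroke, 5.34-fold and 5.12-fold. Cux2 held more than 50% of the marker fragments in 191 sham (44.9%) and 78 stroke nuclei (40.2%), and none in 33 and 18. It led in 199 sham and 81 stroke nuclei, followed by Rasgrf2 in 83 and 43, Nectin3 in 47 and 22, and Rorb in 44 and 29.

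Rasgrf2 (chr13:91880400-92131656, − strand) was at 388 CPM against 118 in sham and 365 against 117 in stroke. Nectin3 (chr16:46387706-46498525, − strand) was at 150 against 52.6 and 154 against 54.3, and Rorb (chr19:18930605-19111196, − strand) at 149 against 56.7 and 177 against 66.3. All 3 loci were therefore between 2.62 and 3.28 times as open in the gated nuclei, in both libraries. Lhx2 (chr2:38339281-38369733, + strand) was at 91.1 against 31.1 in sham and 66.3 against 30.1 in stroke. The neurogenic factors gave few fragments, with Neurod1 (chr2:79452521-79456751, − strand) at 18.5 against 7.43 and 13.8 against 6.42, and Neurod6 (chr6:55677822-55681263, − strand) at 10.3 against 6.55 and 10.7 against 5.51. Per kb counted, the order differed, with Cux2 at 3.91 CPM per kb in sham, Neurod1 at 2.96, Lhx2 at 2.81, Neurod6 at 1.89, Rasgrf2 at 1.53, Nectin3 at 1.33 and Rorb at 0.814.

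To read each gene without its own part in the selection, the gate was run again with that gene left out. The left-out gene was then more open in gated nuclei than in the rest by 1.33-fold for Cux2 in sham (1.25 to 1.42) and 1.21-fold in stroke (1.09 to 1.33), by 1.57-fold and 1.35-fold for Nectin3, and by 1.72-fold and 1.76-fold for Neurod1. Rasgrf2 gave 1.41-fold and 1.15-fold, and Lhx2 1.24-fold and 1.31-fold. Rorb reached 1.33-fold in sham but 1.02-fold in stroke (0.874 to 1.19), and the intervals of Neurod6 included 1 in both libraries. For Cux2, Rasgrf2, Nectin3, Rorb and Lhx2 these folds lay below those of the same gene when it took part in the gate, with intervals that did not overlap; for Neurod1 and Neurod6 the intervals overlapped.

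**Figure D2:**
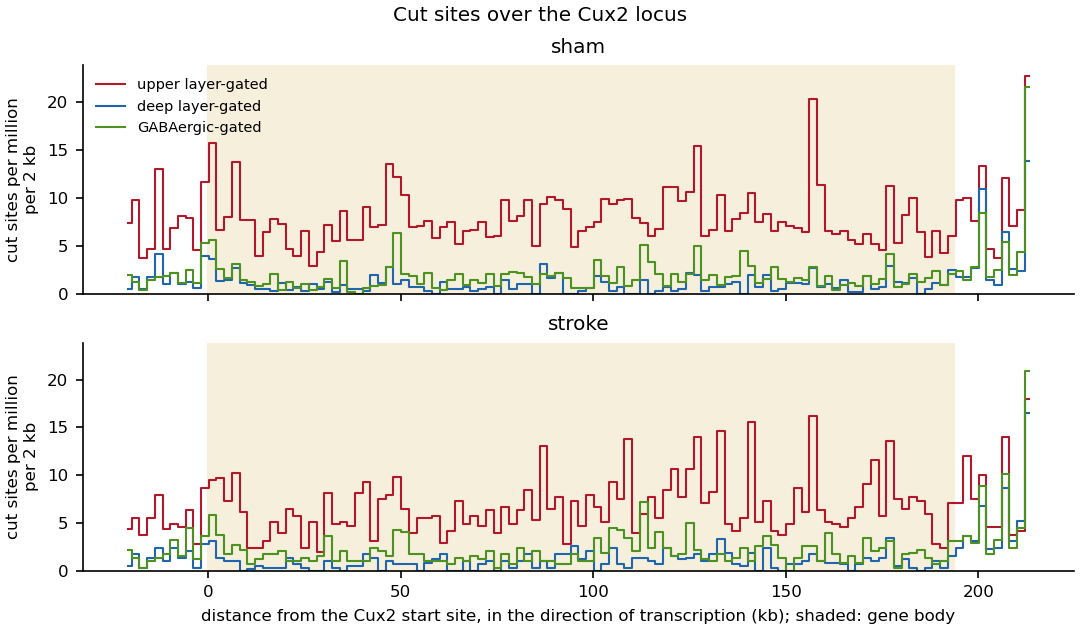
Cut sites (CPM) in 2 kb steps along the Cux2 locus against distance from its start site (kb), in upper layer-gated (red), deep layer-gated (blue) and GABAergic-gated nuclei (green) of the sham (top) and stroke (bottom) libraries; shading marks the gene body. Cux2 was part of the rule, and the red line lies above the others along nearly the whole gene body in both libraries, with no single peak carrying the difference.

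Genes outside the rule gave a partial match to the label. Of 16560 genes with at least 100 fragments in gated nuclei, 79 (0.477%) were past 1.5-fold higher than in the rest in both libraries. Among 9 other upper layer genes, 1 was: Cux1, the paralog of Cux2, at 384 CPM against 215 in sham (1.78-fold, 1.70 to 1.86) and 278 against 181 in stroke (1.54-fold, 1.42 to 1.66). Intervals lay above 1 in both libraries for 2 of the 9, Cux1 and Stard8, and below 1 for Whrn, at 0.840-fold and 0.518-fold. The calcium buffer Calb1, a marker of layer 2/3 cells, was at 1.32-fold in sham (1.06 to 1.62) and 1.35-fold in stroke (0.948 to 1.87).

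Of 9 genes of telencephalic excitatory neurons, 5 had intervals above 1 in both libraries, against 5.36% of all genes. The rest includes the GABAergic barcodes that the rule dropped, and the part of these folds due to that exclusion was not tested. Interval counts also depend on the depth of a list, which was not matched here. The 5 are therefore a description and not a check of the label. Among the 5 were Slc17a7, the vesicular glutamate transporter VGLUT1, at 1.16-fold and 1.40-fold, Sv2b, a synaptic vesicle protein, the kinase Camk2a, and Itpka. None of the 9 was past 1.5-fold in both. Of 7 deep layer genes with at least 100 fragments, 4 had intervals below 1 in both libraries, against 4.6% of all genes, among them Bcl11b at 0.571-fold and 0.649-fold and Foxp2 at 0.672-fold and 0.581-fold. The eighth gene of the list, Fezf2, had only 28 and 13 fragments, at 0.574-fold and 0.577-fold. Summed over the list, deep layer loci were at 629 CPM in upper layer-gated sham nuclei and 2015 in the deep layer-gated ones, whose gate used 5 of the 8 genes.

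Summed over the 9 telencephalic loci, upper layer-gated nuclei were at 1078 CPM in sham (1051 to 1105), close to the 1065 of deep layer-gated nuclei and above the 674 of GABAergic-gated nuclei. The GABAergic-gated nuclei are barcodes that the rule leaves out. The 9 upper layer loci outside the rule summed to 637 CPM, against 403 and 398, and in stroke to 508 against 342 and 441. Most of that gap lay in Cux1: without it, the other 8 loci summed to 253 CPM in sham (240 to 266), against 235 in deep layer-gated, 220 in GABAergic-gated and 231 in all other barcodes. In stroke the 8 loci stood at 230 (212 to 250), against 204, 231 and 234, so that the gated nuclei were not above the GABAergic-gated or other barcodes there. The sum over all 9 loci also differed with the rule gene that led. In sham it was 713 CPM in nuclei led by Cux2, 678 by Rorb, 489 (450 to 530) by Rasgrf2 and 601 by the other 4 markers. In stroke these were 562, 496, 468 and 446. A telencephalic score of 3 or more was reached by 16.2% of the gated sham nuclei and 7.73% of the stroke nuclei, against 16.1% and 7.26% of deep layer-gated nuclei and 10.3% and 6.43% of all other barcodes.

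Loci of other cell types were not lower across the board. In upper layer-gated nuclei, the 8 astrocyte loci summed to 292 CPM in sham and 352 in stroke, against 309 and 386 in all other barcodes. The 6 oligodendrocyte loci were higher in the gated nuclei, at 83.6 and 112 against 78.4 and 91.5, and of these Mobp, a myelin gene, was at 1.47-fold in sham and 1.81-fold in stroke over the rest. Without Mobp, the other 5 loci were at 56.4 CPM in sham (50.5 to 62.9) against 59.2 in all other barcodes, and at 70.3 in stroke (60.3 to 81.4) against 67.7. The 9 myeloid loci summed to 326 and 356, against 312 and 352 in all other barcodes. No gene of these lists was at 0. Single genes went both ways. Intervals lay below 1 in both libraries for 2 of the 8 astrocyte genes, 1 of 5 oligodendrocyte precursor genes and 0 of the oligodendrocyte and myeloid genes. They lay above 1 in both for 1 of the 6 oligodendrocyte genes and 0 of the others, against 4.6% of all genes below and 5.36% above. A score of 3 or more on a glial or myeloid list was found for 72 of the gated sham nuclei (16.9%) and 49 of the stroke nuclei (25.3%), against 19% and 25.8% of other barcodes. In these sparse counts, glial and myeloid sums other than Mobp were thus about as open in the gated nuclei as in other barcodes, so the gated nuclei are described by the rule that chose them and not as a pure cell type.

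**Figure D3:**
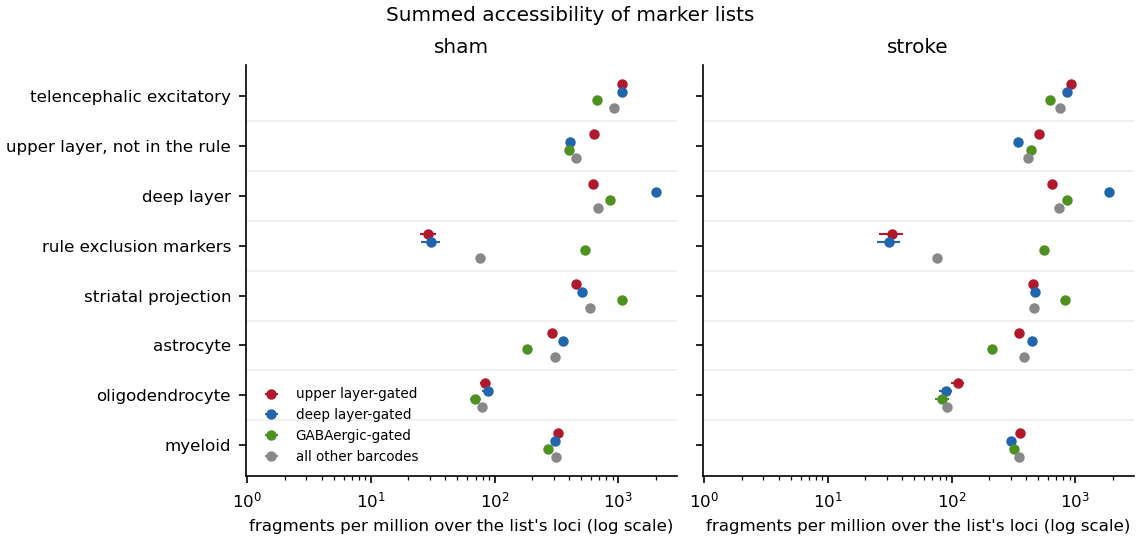
Fragments (CPM, log scale) summed over the loci of 8 marker lists in upper layer-gated (red), deep layer-gated (blue), GABAergic-gated (green) and all other barcodes (grey), with exact Poisson 95% intervals, for sham (left) and stroke (right). Red points lie highest for upper layer loci outside the rule (637 in sham and 508 in stroke, of which Cux1 gave 384 and 278), close to grey for astrocyte and myeloid loci, and above grey for oligodendrocyte loci, where the other 5 without Mobp were at 56.4 against 59.2 in sham and 70.3 against 67.7 in stroke.

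Among protein-coding genes ranked by the lower of the 2 within-library ratios to the rest, 6 of the first 15 were rule markers. The other 9 did not overlap the counted region of a rule marker, and were Olfr464, an odorant receptor gene (2.40-fold and 3.2-fold); Gm45826 (2.14 and 2.63); Pheta1, which lies 1.73 kb from the counted region of Cux2 (2.28 and 2.08); Spata31d1a (1.87 and 2.23); Mylk3 (1.80 and 1.91); Car4, a carbonic anhydrase (1.76 and 2.28); Trim54 (1.82 and 1.76); Fam47e (2.11 and 1.71); and Wdr66 (1.73 and 1.70). Wdr66 was the most open of the 9 at 98.3 CPM in sham and 86.8 in stroke, and the other 8 were at 11.1 to 36.1 CPM. None belongs to a marker list used here.

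Of 145 genes of 14 functional lists, 0 were past 1.5-fold higher than in the rest in both libraries, against the 0.477% of all genes. Intervals lay above 1 in both libraries for 22 and below 1 for 11, against the 5.36% and 4.6% of all 16560 genes. The 22 included 6 of 20 voltage-gated channel genes, 5 of 14 genes of transmitter release and synaptic adhesion, 4 of 18 glutamate receptor genes (against 3 below), and Bdnf, the activity-regulated neurotrophin, at 1.37-fold in sham (1.20 to 1.55) and 1.6-fold in stroke (1.33 to 1.92). The tested genes of these 3 lists had medians of 1548, 1104.5 and 1207.5 fragments in the gated nuclei, against 257 over all genes, so that their intervals were narrower. The NMDA receptor subunit Grin2a was at 1.32-fold and 1.18-fold. Grik3, a kainate receptor subunit, was less open, at 79.5 CPM against 173 in sham and 106 against 166 in stroke.

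When all barcodes were placed by their accessibility in 1 kb bins outside the rule genes, upper layer-gated nuclei lay near each other more often than other nuclei lay near them. Of the 20 nearest neighbours of a gated nucleus, 15.1% were gated themselves on average (16.5% in sham and 11.9% in stroke), against 4.66% for deep layer-gated, 3.29% for GABAergic-gated and 5.74% for all other nuclei. The other gates also lay near their own kind. GABAergic-gated nuclei had 18.3% such neighbours (5.37% of all barcodes), and deep layer-gated nuclei 9.58% (5.21%). Neighbours also split by library, with 86.2% sham neighbours for gated sham nuclei and 27.7% for gated stroke nuclei, against 57.6% over all barcodes. Since the gated share was 7.14% in sham and 4.43% in stroke, the 16.5% and 11.9% have different base rates. Of the 619 gated nuclei, 117 (18.9%) had no gated neighbour. Clusters 2 and 4 of 18 held 378 of them (61.1%), 61.9% of those in sham and 59.3% of those in stroke, and the other 241 were scattered over further clusters, including 59 in cluster 1 and 38 in cluster 7, of whose nuclei 14.9% were GABAergic-gated.

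Those 2 clusters held 1329 sham nuclei (22.3%, 21.3 to 23.4) and 726 stroke nuclei (16.6%, 15.5 to 17.7), a ratio of shares of 0.742 (0.677 to 0.813). Fragments over the rule genes were 1.68 and 1.58 times their expected number there, those over the telencephalic excitatory list 1.31 and 1.42 times, and those over the 3 exclusion genes 0.284 and 0.318 times. The gated nuclei were 19.9% of cluster 2 and 16.8% of cluster 4. These clusters carry no cell type name here, and their values over all nuclei are given beside the gated nuclei below for comparison, since they hold more nuclei. Their lower share in stroke was not particular to them. Cluster 1 went from 12.6% to 7.28%, cluster 9 from 5.26% to 2.99% and cluster 3 from 10.9% to 8.36%. Shares rose in clusters 10, 13, 15 and 17 and in the 3 made almost wholly of stroke nuclei, and fell in all others. Those 3 held 747 of the 4380 stroke nuclei.

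Among 10777 bins of 500 bp outside the rule and exclusion genes with at least 5 CPM of cut sites in gated nuclei of each library, the 1000 most specific to them were mainly distal. Only 5.5% lay within 1 kb of a start site, against 65.8% of all these bins, while 49.7% lay in introns and 39.2% between genes. With 1 CPM added to both sides, as in the ranking, their median fold over other nuclei was 1.49 in sham and 1.76 in stroke. This addition draws the folds of such sparse bins toward 1. Their median GC content was 49.6% against 60% for all bins. Since these bins were ranked on the same nuclei, the folds describe the choice.

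The first 10 were each at 5.33 to 15.8 CPM of cut sites in gated nuclei of either library. The bin of rank 2, between genes 212 kb from the start of Fam84a, was at 13.5 CPM in sham against 4.73 in other nuclei, 3.17 in deep layer-gated and 0.599 in GABAergic-gated nuclei, and at 10.1 against 3.21 in stroke. The bin of rank 3, nearest to Btbd3, was at 13.1 against 4.64 in sham and 15.8 against 4.98 in stroke. Rank 8 lay upstream of Calb1, at −111014 bp from its start, at 8.72 against 2.64 in sham and 5.33 against 1.77 in stroke. Inside the rule genes, the most open Cux2 bin was at 8.72 CPM in sham against 3.24 in other and 1.34 in deep layer-gated nuclei, and at 8.29 against 2.47 in other nuclei in stroke. The most open bin of Rorb lay at its start site and differed less, at 7.53 against 5.68 in sham and 8.09 against 5.36 in stroke.

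Letters of the Neurod-type E-box, read on both strands, were found in 55.9% of the 1000 bins and 23.6% of all bins. Much of this gap goes with distance from promoters: among distal bins alone the shares were 57.7% of 945 and 38.8% of 3681, and among the 200 highest-ranked bins 60.5%. The AP-1 site was in 25.2% of the 945 and 20.2% of the 3681, but in 17.5% of the 200 highest-ranked bins against 24.2% of the 1000. The second E-box (CAGCTG) was in 33.4% of the 945 and 30.5% of the 3681, and the homeodomain site TAATTA in 8.57% and 6.68%. The Cux-type site ATCGAT (0.741% and 1.22%), the ROR-type site TAGGTCA (1.90% and 2.25%), the MEF2 site CTATTTATA (1.16% and 0.869%) and the Egr site GCGTGGGCG (0.423% and 1.14%) were rare in both. No motif searched contains another, and a match is a description of the sequence.

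**Figure D4:**
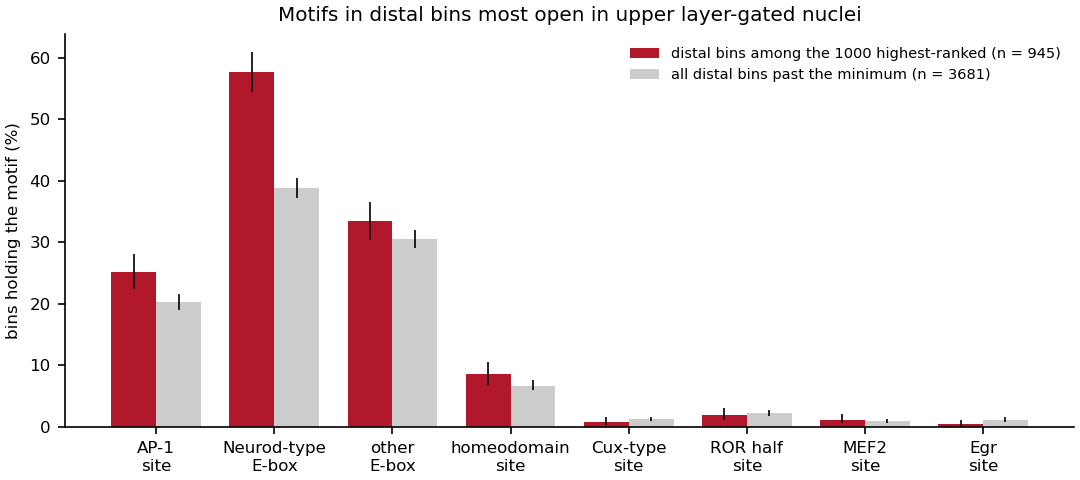
Percentage of distal 500 bp bins that hold each motif on either strand, for the 945 distal bins among the 1000 most specific to upper layer-gated nuclei (red) and all 3681 distal bins past the minimum (grey), with exact binomial 95% intervals. The Neurod-type E-box stands out, at 57.7% against 38.8%.

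Stroke against sham was then read within the gated nuclei, over 5847704 sham and 2533554 stroke fragments. The median log2 ratio over the 16560 genes was −0.08, and 573 genes (3.46%) were past 1.5-fold higher and 908 (5.48%) lower, so that 38.7% of the called genes were higher. Fragments within 1 kb of a start site were 15.5% of all fragments in sham and 13.8% in stroke; scaled to those, the median was 0.09 and 1258 genes were higher and 340 lower (78.7% higher). The direction of the balance therefore turned with the scaling, and calls below are made on the ratio itself, not on its distance from the median of −0.08. Scaling to promoter fragments added 0.17 to every log2 ratio. Of the 573 higher genes 92 (16.1%), and of the 908 lower genes 86 (9.47%), were past 1.5-fold the same way over all nuclei of clusters 2 and 4. Among all 23575 genes tested in those clusters, 3.65% were higher and 2.47% lower. The clusters hold 378 of the 619 gated nuclei, so the overlap is partly with the same nuclei.

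The 10 protein-coding genes with the largest rise were led by Upp1, uridine phosphorylase, at 6.33 CPM in sham and 29.997 in stroke, a log2 ratio of 2.24 (1.66 to 2.85). It was also higher in deep layer-gated nuclei (1.45), over clusters 2 and 4 (1.22) and in the rest of the library, which went from 6.71 to 13.7 CPM. Osmr, the oncostatin M receptor, went from 9.58 to 25.3 CPM, with 1.40 (0.86 to 1.94) in gated, 1.78 in deep layer-gated and 1.02 in all nuclei of the 2 clusters, and from 9.79 to 19.8 CPM in the rest. Bcl3, a nuclear cofactor of NF-κB, went from 7.87 to 23.3 CPM, with log2 ratios of 1.56, 1.74 and 0.53, and from 10.8 to 28.2 CPM in the rest. In stroke its log2 ratio of gated nuclei over the rest was −0.26 (−0.68 to 0.10), an interval that included 0. The others were Zfp217 (1.63), Fam107a (1.6), Wnt9b (1.58), Sult5a1 (1.45), Slc6a2 (1.42), Ikzf1 (1.38) and Slc22a22 (1.34). All 10 rested on 102 to 154 fragments, 7 were past 1.5-fold in deep layer-gated nuclei, 3 in GABAergic-gated nuclei, 5 over all nuclei of the 2 clusters and 5 in the rest of the library.

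The 10 with the largest fall were past 1.5-fold in fewer of the other groups. Doc2a, a calcium sensor of transmitter release, went from 18 to 5.53 CPM, a log2 ratio of −1.66 (−2.62 to −0.89), but stood at −0.50 in deep layer-gated nuclei and −0.34 over the 2 clusters. It was followed by Rac2 (−1.51), 4930404N11Rik (−1.50), Haao (−1.46), Entr1 (−1.44), Ddx49 (−1.43), Edaradd (−1.42), Degs1 (−1.42), Cfap206 (−1.41) and Tnnt1 (−1.37). None of the 10 was past 1.5-fold lower in deep layer-gated or GABAergic-gated nuclei, and only Cfap206 was over the 2 clusters (−0.71). They rested on 101 to 170 fragments. The share of all genes past 1.5-fold in deep layer-gated, GABAergic-gated or other nuclei is not given here. The counts in those groups, for rises and falls, therefore stand without a background and were not tested.

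In the lists of the response to activity, heat, low oxygen and cell death, 0 genes were past 1.5-fold, against 3.46% higher and 5.48% lower over all genes, shares that amount to few genes in lists this short. Of 17 immediate early and AP-1 genes tested, the interval lay below 0 for 3 and above 0 for 1, and the median was −0.15; it was −0.40 when 1 kb either side of start sites was counted, where the median of all genes was −0.22. Fos was at 20.4 CPM in sham and 20.1 in stroke, and Npas4, an activity-induced factor, at 33.5 and 22.5, a log2 ratio of −0.57 (−1.03 to −0.14). Heat shock genes (5 tested, median −0.20), hypoxia and glycolysis genes (10, 0.01) and cell death genes (11, −0.07) had intervals below 0 for 1, 3 and 0 genes, and above 0 for 0, against 16.9% of all genes below 0 and 8.88% above. Of 8 axon growth genes tested 1 was, the transcription factor Klf4, which fell from 24.1 to 11.8 CPM (−1.01, −1.65 to −0.45), with −0.05 in deep layer-gated nuclei.

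Over the 145 genes of the functional lists, 3 were past 1.5-fold higher (2.07%, against 3.46% of all genes) and 3 lower (2.07%, against 5.48%). These shares depend on depth: with a minimum of 200 fragments they were 1.86% and 4.01% of the genes tested. Several of the lists are deeper than all genes, so the shares were not read against the background. The higher ones were Irf9, a subunit of the interferon-stimulated factor complex, at 14.0 and 23.3 CPM (0.74, 0.22 to 1.23), besides Bcl3 and Osmr. The lower ones besides Klf4 were Scn1a, a sodium channel subunit, at 71.0 and 46.2 CPM (−0.62, −0.93 to −0.32), and Unc13a, a priming factor of synaptic vesicles, at 132 and 85.3 CPM (−0.63, −0.86 to −0.41). Neither Scn1a nor Unc13a was past 1.5-fold when scaled to promoter fragments (−0.45 and −0.46) or against the median of all genes (−0.53 and −0.55), whereas Klf4 was in both (−0.84 and −0.92). The 5 interferon genes tested had a median of −0.01 and the 6 NF-κB and cytokine genes 0.11.

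The medians of the postsynaptic scaffold and GABA-A receptor lists lay below that of all genes, with 0 members past 1.5-fold and with 3 of 12 and 5 of 12 members above it. Postsynaptic scaffold genes had a median of −0.29, and for 9 of 12 the interval lay below 0, against the 16.9% of all genes. Its genes had a median of 1184.5 fragments against 257 over all genes, and so narrower intervals. Homer1, a scaffold of metabotropic glutamate receptors, was at 138 CPM in sham and 92.4 in stroke (−0.58, −0.80 to −0.37), Shank1 at 169 and 118 (−0.52), and Dlg4, which encodes PSD-95, at 93.4 and 63.6 (−0.55). The median of this list was −0.32 in deep layer-gated nuclei and −0.21 over clusters 2 and 4. GABA-A receptor genes had a median of −0.29 with 6 of 12 intervals below 0, but −0.06 in deep layer-gated nuclei and −0.04 over the 2 clusters. Voltage-gated channels (20 genes, −0.18), transmitter release and adhesion genes (14, −0.15), neurotrophins and their receptors (5, −0.11) and glutamate receptors (18, −0.10) lay nearer the median of −0.08. When barcodes with a glial or myeloid score of 3 or more were left out before gating, glutamate receptors stood at −0.03 and release and adhesion genes at −0.02, above the median of −0.10 over all genes, while scaffold genes stayed at −0.25 and GABA-A receptor genes at −0.27. Bdnf was at 47.5 and 50.1 CPM, and its receptor gene Ntrk2 at 467 and 342 (−0.45, −0.56 to −0.34).

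**Figure D5:**
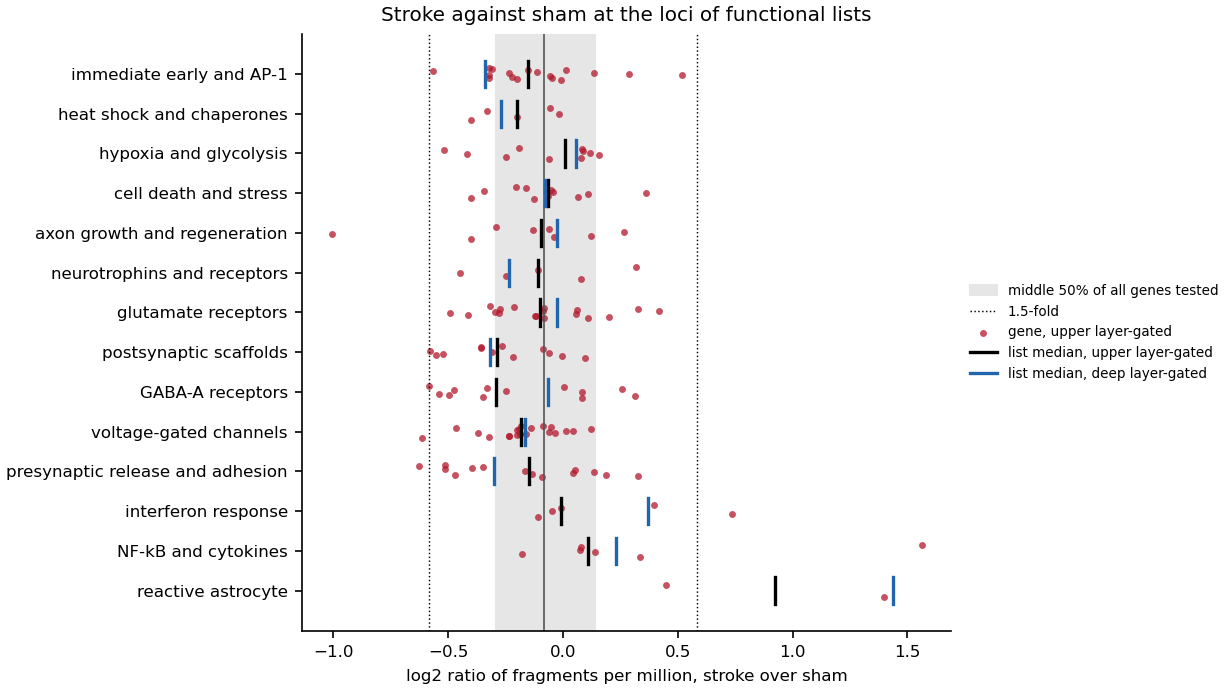
Log2 ratio of CPM in stroke over sham for each tested gene of the 14 functional lists in upper layer-gated nuclei (red points), with the list median (black) and the list median in deep layer-gated nuclei (blue); the grey band is the middle 50% of all 16560 genes, the grey line their median of −0.08, and dotted lines mark 1.5-fold. Of 145 genes, 3 lie beyond the upper and 3 beyond the lower dotted line.

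Of the 9 upper layer genes outside the rule 1, Whrn (−0.62), was past 1.5-fold lower and 0 higher, and of the 9 telencephalic genes 1, Arpp21, was lower and 0 higher, against 5.48% lower and 3.46% higher over all genes. Neither Whrn nor Arpp21 was past 1.5-fold when scaled to promoter fragments (−0.45 and −0.43). Cux1, which was not past 1.5-fold, went from 384 to 278 CPM (−0.46, −0.59 to −0.34), and by −0.52 over clusters 2 and 4, and Arpp21, a neuronal phosphoprotein gene of the telencephalic list, from 347 to 230 (−0.60, −0.73 to −0.46). Stard8 was at 36.6 and 51.3 (0.49, 0.16 to 0.81), also short of 1.5-fold.

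The astrocyte and oligodendrocyte lists had medians above that of all genes, but this was not particular to them. Medians also lay above it for oligodendrocyte precursor (0.18), myeloid (0.17), vascular and leptomeningeal (0.04) and thalamic genes (0.01). The same held for dentate granule (0.84), hippocampal (0.12) and striatal genes (0.10), and for the 1 GABAergic gene tested outside the rule (0.19). Over all genes 3.46% were past 1.5-fold higher. The 6 astrocyte genes tested had a median of 0.23, with 2 past 1.5-fold higher, Slc1a3, the glutamate transporter GLAST, at 14.0 and 34.3 CPM (1.29) and Gfap (0.61), and the 4 oligodendrocyte genes a median of 0.34, with Mobp and Cnp past 1.5-fold. Prox1, 1 of 2 dentate granule genes tested, was at 1.26, and Wfs1, 1 of 4 hippocampal pyramidal genes tested, at 0.73. Of 5 striatal genes tested 1, Drd2, was past 1.5-fold (1.30), while the ratio of the list's summed loci was 0.01 (−0.10 to 0.11). Over all nuclei of clusters 2 and 4, Slc1a3 was at 0.25, Gfap at −0.11 and Prox1 at 0.04. Reactive astrocyte genes had a median of 0.92 over the 2 tested, Osmr and Cd44. Leaving out barcodes with a glial or myeloid score of 3 or more before gating gave 350 gated sham and 146 stroke nuclei. Slc1a3 was then at 0.81 (0.15 to 1.45, from only 52 and 36 fragments), Gfap at 0.52 (−0.06 to 1.07) and Cnp at 0.00. These genes belong to the lists behind that score, so leaving out the barcodes acts on their values directly. Cd44 was at 0.24, Osmr at 1.64 (1.03 to 2.25), Upp1 at 2.45 and Bcl3 at 1.07. They took no part in the score, so the 2 groups of genes cannot be compared on this filter. Of the 10 largest rises and 10 largest falls, 11 had fewer than the minimum of 100 fragments in those nuclei, Osmr, Upp1 and Bcl3 among them, and their ratios there are given as values only. The other 9, 4 rises and 5 falls, were past 1.5-fold the same way. Most of these nuclei are the ones in which the largest changes were picked, so this is not a separate check. In all, 454 of the 14792 genes then tested were higher (3.07%) and 1054 lower (7.13%).

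At the level of 500 bp bins, 11005 had at least 100 cut sites in the gated nuclei of both libraries together. Of these, 21 (0.191%) were past 2-fold higher in stroke and 549 (4.99%) lower, around a median of −0.27, close to the −0.29 of deep layer-gated nuclei over the same bins. AP-1 sites were found in 7 of the 21 higher bins, in 13.3% of the lower bins and in 10.4% of all of them. Other motifs were in more of the 21: the CAGCTG E-box in 10 (28.8% of lower and 24.9% of all bins) and the Neurod-type E-box in 8 (29.3% and 23.2%). The homeodomain site was in 2 and the other motifs in 0. Promoter and distal bins were not separated here, and the AP-1 site was in 20.2% of the 3681 distal bins described above. The 1000 bins most specific to the gated nuclei had a median of −0.10, against −0.17 for the 10777 bins they were ranked among. The ranking used the lower of the folds in the 2 libraries, so a bin that lost its excess in stroke could not rank high. Promoters were also 5.5% of the 1000 and 65.8% of all, so this gap was not read further. Among the regions shown outside the rule genes, the bin near Dact2 went from 15.3 to 7.90 (−0.94, −1.49 to −0.45) that near Prag1 from 12.5 to 5.92 (−1.06, −1.69 to −0.50) and that upstream of Calb1 from 8.72 to 5.33 (−0.69, −1.38 to −0.09). The bin near Fam84a was at 13.5 and 10.1 CPM and that near Btbd3 at 13.1 and 15.8, with intervals that included 0. The Rasgrf2 and Cux2 bins lie in genes used for selection and are given as values, at 15 and 7.30 CPM and at 8.72 and 8.29.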

How the data were processed

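Single-nucleus ATAC-seq (Next GEM Single Cell ATAC Kit v2) was performed by the study on 2 libraries, sham and stroke, each from 4 pooled mice. Per the labels, the authors processed reads with Cell Ranger ATAC 2.1.0 against mm10; the deposited files hold fragments with their read counts, and counts per barcode, with no normalization. Fragments were counted here once each over GENCODE M21 gene bodies plus 2 kb upstream and expressed as CPM of all fragments of the nuclei summed.

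The members and gene lists were chosen with earlier results of these data known. Genes with at least 100 fragments in gated nuclei were compared, called past 1.5-fold, with 0.5 fragments added for log2 ratios in the fit over all genes. Bins were ranked over other nuclei with 1 CPM added to both sides. Named were the 10 rule genes, genes of the lists, the 10 highest and 10 lowest protein-coding stroke over sham ratios, the 15 protein-coding genes highest over the rest in both libraries, the 10 highest-ranked bins and the most open bin of each rule marker. Intervals were exact (Poisson, binomial or conditional, 95%). No p-values were computed, since each condition is 1 library. Doublets were not removed; leaving out barcodes with glial or myeloid scores was an alternative. Nearest neighbours (20) and clusters (Leiden, resolution 1) used components 2 to 30 of 1 kb bins without the rule loci. Counting was tested on simulated data. Promoters, introns and sequences came from the mm10 (GRCm38) reference. Software comprised Python 3.11.15, numpy 2.4.6, pandas 2.3.3, scipy 1.17.1, scikit-learn 1.9.0, leidenalg 0.10.2 and pysam 0.24.0. Some items covered by the named-gene rule are not reported here.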

Additional observations from a re-analysis of the deposited data

Results flagged for a closer look

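The share of upper layer-gated nuclei and that of deep layer-gated nuclei stood apart between conditions, at a ratio of stroke over sham of 0.620 for the former and 1.05 for the latter. In 4 of 145 genes of the functional lists (2.76%, against 1.27% of all 16560 genes), the log2 ratio of stroke over sham had intervals on opposite sides of 0 in the 2 gates. All 4 belong to the glutamate receptor, voltage-gated channel and release and adhesion lists. Those had medians of 1207.5, 1548 and 1104.5 fragments in the gated nuclei, against 257 over all genes. Their intervals are narrower, so the 2 percentages are not a like comparison. Grik1, a kainate receptor subunit, was at −0.29 in upper layer-gated and 0.41 in deep layer-gated nuclei, and Scn1a at −0.62 and 0.44. The reverse order was seen for Snap25, a SNARE protein of synaptic vesicle fusion, at 0.32 and −0.34, and for the presynaptic adhesion gene Nrxn2 at 0.14 and −0.19. These differences were not tested, since each condition is 1 library.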

How the results depend on the processing

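No paired analysis was possible because sham and stroke are 1 pooled library each, and for the same reason no replicate could be left out. The ratio of shares of gated nuclei, 0.620, stayed under 1 in all 15 alternatives, with 0.429 at a score of at least 5, 0.807 with the expected rate taken within each library, 0.340 (0.0615 to 1.26, from 12 and 3 nuclei) when only 1 kb either side of start sites was counted, and 0.742 for the share of the library in clusters 2 and 4, an alternative chosen after seeing the data. Thinning to 5000 fragments gave 0.622. The share of the library fell in other clusters too, such as cluster 1, from 12.6% to 7.28%.

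The counts of genes past 1.5-fold, 573 higher and 908 lower, moved more. They were 1258 and 340 when scaled to promoter fragments and 56 and 87 past 2-fold, of the same 16560 genes. The number of genes tested differed in the other settings. With a minimum of 50 fragments, 1317 and 1492 of 21066 were past it (6.25% and 7.08%), and with 200, 198 and 427 of 10637 (1.86% and 4.01%). Thinned nuclei gave 178 and 517 of 7397 (2.41% and 6.99%), a smaller count of lower genes but a larger share than the 5.48% of the main setting. Counting 1 kb either side of start sites left 34 higher and 703 lower of 6958 (0.489% and 10.1%). Over all nuclei of clusters 2 and 4, also chosen after seeing the data, 861 of 23575 tested were higher (3.65%) and 583 lower (2.47%). The gated nuclei inside those clusters gave 494 and 1060 of 12287 (4.02% and 8.63%). The direction of the balance turned with the scaling to promoters and over all nuclei of the 2 clusters, but not in the gated nuclei inside them. The filter on start site enrichment removed 0 sham and 2 stroke barcodes and changed neither count. The 10 largest changes in each direction rested on 101 to 170 fragments. The median of postsynaptic scaffold genes stayed below that of all genes in every alternative run, from −0.62 at start sites to −0.12 when scaled to promoters, where glutamate receptors stood at 0.07 and release and adhesion genes at 0.02. Not all of these settings could change that order. Scaling to promoters shifted every gene alike, and the filter on start site enrichment removed no gated nucleus. The minimums of 50 and 200 fragments left the list median at −0.29.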

Other observations

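The levels of further marker lists were read in the gated nuclei, summed over each list. The 8 vascular and leptomeningeal loci summed to 165 CPM in sham and 183 in stroke, and the 5 oligodendrocyte precursor loci to 98.0 and 112. The 5 dentate granule loci were lower in upper layer-gated than in GABAergic-gated nuclei, at 80.5 against 137 CPM in sham and 116 against 164 in stroke. The 7 striatal projection loci were at 454 CPM in sham and 452 in stroke, against 1067 and 826 in GABAergic-gated nuclei.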
